A study of Mus musculus with 9 samples.

Results

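The 10 genes described here belong to the ATF4 amino acid response, and they were measured in mouse embryonic stem cell (mESC) lines. The source embryos had developed in the mother and been flushed from the uterus, or had grown in medium with or without amino acids. The genes are Atf4 itself, the stress response genes Ddit3, Trib3, Sesn2 and Chac1, the amino acid synthesis enzymes Phgdh, Psat1 and Asns, and the one-carbon enzymes Shmt2 and Mthfd2. Members were taken as the transcript clusters (sets of array probes for 1 gene) to which the array annotation gives one of these symbols alone. Each gene had 1 such cluster, so that all 10 were measured, among 23410 clusters with an assigned gene that stand for 19938 single symbols. No filter on low levels was applied, and none of the 10 was lost.

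When amino acids run short, uncharged transfer RNA activates the kinase GCN2, which phosphorylates the initiation factor eIF2. General translation then falls while the Atf4 messenger RNA is translated more, and the ATF4 protein activates genes for amino acid synthesis, uptake and transfer RNA charging. Stress in the endoplasmic reticulum, viral RNA and haem shortage reach the same factor through other eIF2 kinases. As much of this control acts on translation and on protein stability, the level of the Atf4 transcript is only one part of ATF4 activity, and the protein was not measured here.

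Transcript levels came from 9 lines of C57BL/6 background, all labelled female, each on 1 Affymetrix Mouse Gene ST array. The mESCWM lines (WM1, WM2 and WM3) came from embryos made by IVF and grown in Whitten's medium under 20% O2, and the mESCKAA lines (KAA1, KAA2 and KAA3) from IVF embryos grown in KSOM with amino acids under 5% O2. The mESCFB lines (FB1, FB2 and FB3) were made from blastocysts of natural matings, flushed from the uterus. As the study describes them, Whitten's medium contains more glucose than KSOM and holds neither amino acids nor glutamine, so that medium and oxygen differed together between the IVF groups and cannot be told apart. All lines were derived one blastocyst at a time on fibroblast feeders, in one and the same medium with serum, glutamine, non-essential amino acids, LIF and the inhibitors CHIR99021 and PD0325901, then moved to gelatin to remove the feeders and collected at the eighth passage. The comparisons therefore ask what of the embryo's conditions can be seen in cells that had since all been grown in amino acid-containing medium.

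Values are log2 levels made by RMA, so that a difference of 1 is a doubling, and levels of different genes are not compared because each gene has its own probes. The lines resembled each other closely, with Pearson's r of at least 0.990 between any pair over the tested clusters. All 9 embryonic stem cell markers checked had levels of 6.11 or more in every line, and 0 of the 9 passed limma's threshold in any comparison (lowest adjusted p = 0.733). Tdgf1, a co-receptor of the stem cell state, nevertheless read 11.59 to 11.63 in mESCWM lines, 11.74 to 11.79 in mESCKAA lines and 11.82 to 11.93 in mESCFB lines, with no overlap between any groups. Pou5f1 read 10.07 to 10.16 in mESCWM lines, 10.10 to 10.30 in mESCKAA lines and 10.31 to 10.43 in mESCFB lines, so that it lay lower without overlap in both IVF groups against mESCFB. Nanog read 9.09 to 10.35 in mESCWM lines, 8.52 to 9.72 in mESCKAA lines and 9.02 to 10.10 in mESCFB lines, with overlap of all groups and its highest mean in mESCWM. The Y-linked gene Eif2s3y stood at 5.19 in WM3, 3.72 in KAA2 and 4.78 in FB1 and between 1.77 and 2.20 in the other 6 lines, although all lines are labelled female. The 11 feeder fibroblast markers with a cluster had a summed level, as log2, of 11.23 to 11.50 in mESCWM lines, 10.71 to 11.09 in mESCKAA lines and 10.50 to 10.83 in mESCFB lines. The spread within a group came from lines that each grew from 1 blastocyst, and 3 lines per group limit the precision.

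ATF4 binds DNA together with C/EBP family proteins at composite sites known as C/EBP-ATF response elements. Their core was searched here as TGATGNAA, and as TTNCATCA for the opposite strand, in the RefSeq promoters of build GRCm38.p6 (250 bases before to 50 bases after the annotated start). This was the only motif searched. It was found in the promoters of 3 of the 10 members (30%), against 14 of 48 other genes of the pathway (29.2%) and 1219 of 27025 genes in all (4.51%). The 3 promoters are printed because they are those of the genes in which the letters were found, with the match in capitals. They lie at chr2:119350992-119351291 (plus strand, Chac1), chr6:7693160-7693459 (minus strand, Asns) and chr2:152344011-152344310 (minus strand, Trib3).
Chac1: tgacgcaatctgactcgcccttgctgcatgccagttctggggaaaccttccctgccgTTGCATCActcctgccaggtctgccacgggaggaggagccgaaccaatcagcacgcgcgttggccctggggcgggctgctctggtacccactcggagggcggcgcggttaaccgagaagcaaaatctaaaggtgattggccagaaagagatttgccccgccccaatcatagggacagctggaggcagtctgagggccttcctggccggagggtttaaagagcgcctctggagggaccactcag
Asns: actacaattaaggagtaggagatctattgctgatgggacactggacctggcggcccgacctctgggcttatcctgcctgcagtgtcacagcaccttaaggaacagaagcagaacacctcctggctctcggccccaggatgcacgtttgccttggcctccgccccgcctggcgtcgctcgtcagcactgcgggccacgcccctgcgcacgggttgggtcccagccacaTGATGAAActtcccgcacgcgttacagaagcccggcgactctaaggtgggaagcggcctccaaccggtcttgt
Trib3: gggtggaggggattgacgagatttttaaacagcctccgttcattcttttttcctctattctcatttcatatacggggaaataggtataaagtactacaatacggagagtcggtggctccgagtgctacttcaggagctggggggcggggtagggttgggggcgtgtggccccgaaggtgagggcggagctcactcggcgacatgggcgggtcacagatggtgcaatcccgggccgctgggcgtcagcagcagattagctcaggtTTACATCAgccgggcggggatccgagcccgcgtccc
The match began 193 bases before the start in Chac1 and 23 bases before it in Asns, and at base 15 after the start in Trib3. It read TGATGAAA along the gene's own strand in Asns, and as the opposite-strand form TTGCATCA in Chac1 and TTACATCA in Trib3. A match is a description of the sequence only, and the absence of one in the other 7 members says only that these letters are not in this window.

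None of the 10 members passed limma's threshold (Benjamini-Hochberg adjusted p under 0.05 over all 23410 clusters) in any of the 3 comparisons, and no other tested cluster did. For mESCWM against mESCKAA lines the share of all clusters called was 0%, for mESCKAA against mESCFB lines 0%, and for mESCWM against mESCFB lines 0%. The rank product, the test the methods name, also called none of the members, while it called 0.346%, 0.107% and 0.120% of all clusters in these comparisons, in that order. Without adjustment, limma's p was under 0.05 for 2, 1 and 2 members, all of them higher in the group named first, against 3.00%, 2.73% and 2.73% of all clusters in that direction and 6.29%, 4.81% and 5.89% in either direction. In what follows the values are therefore descriptions of these lines.

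**Figure D1:**
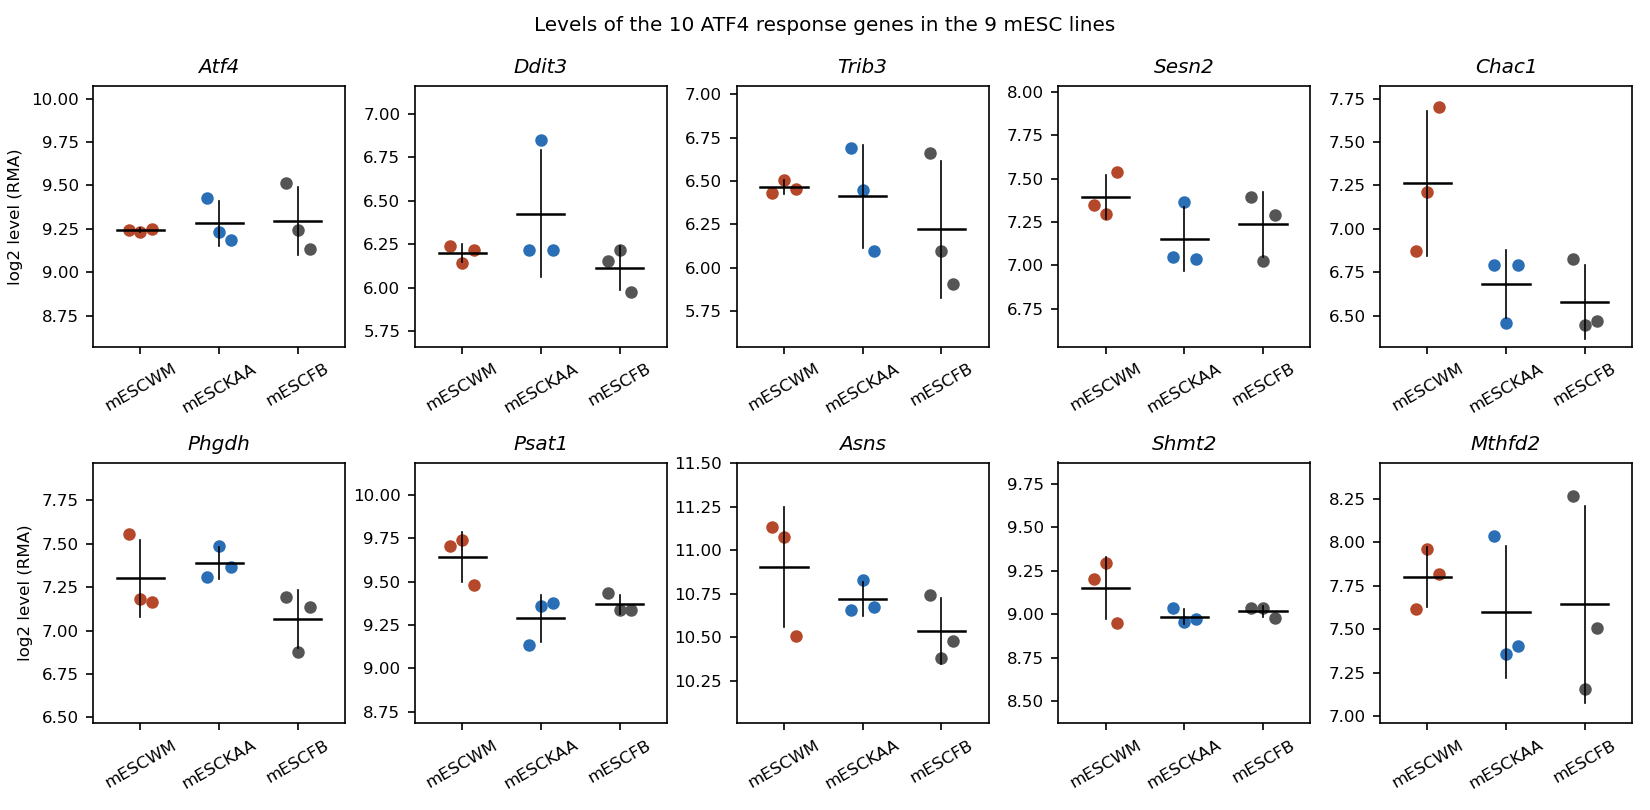
Log2 level of each of the 10 genes (y axis, the same span of 1.5 in every panel) in the mESCWM, mESCKAA and mESCFB lines. Points are lines, in the order 1 to 3 from left to right, and bars are the mean ± SD of 3 lines. Chac1 and Psat1 are the genes whose 3 mESCWM lines lie above every other line.

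Atf4 was the least variable member together with Shmt2 (SD over the 9 lines 0.12 each). Its level was 9.25, 9.23 and 9.25 in the mESCWM lines, 9.43, 9.23 and 9.18 in the mESCKAA lines, and 9.51, 9.24 and 9.13 in the mESCFB lines. The mESCWM lines were nearly level with each other and lay inside the range of both other groups, with FB1 and KAA1 the highest lines. The difference was -0.04 ± 0.11 (SE) for mESCWM minus mESCKAA, -0.01 ± 0.11 for mESCKAA minus mESCFB and -0.05 ± 0.11 for mESCWM minus mESCFB. The 95% confidence intervals of the 3 differences lay between -0.30 and 0.24, which leaves room for changes in either direction. Groups accounted for 3.80% of the variance of Atf4 over the lines.

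Among the stress response genes, Chac1 differed most between groups. It encodes a cytosolic enzyme that breaks down glutathione. Its level was 6.87, 7.21 and 7.70 in the mESCWM lines, 6.79, 6.46 and 6.79 in the mESCKAA lines, and 6.83, 6.44 and 6.47 in the mESCFB lines. Each mESCWM line lay above each of the other 6, but WM1 did so by a narrow margin and WM3 stood far above WM1. For mESCWM minus mESCKAA the difference was 0.58 ± 0.21 (SE), a ratio of 1.49 with a 95% interval of 1.08 to 2.08 (limma, adjusted p = 0.771). For mESCWM minus mESCFB it was 0.68 ± 0.21, a ratio of 1.60 with an interval of 1.15 to 2.23 (limma, adjusted p = 0.819). In the rank product the estimated proportion of false positives for Chac1 was 0.285 and 0.201 in these comparisons, the lowest of any member, with a threshold of 0.05. mESCKAA and mESCFB lines overlapped, with a difference of 0.10 ± 0.21. Without WM3 the difference of mESCWM minus mESCKAA was 0.36, and without the lines of highest Eif2s3y (WM3, KAA2 and FB1) it was 0.25.

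Trib3 encodes a pseudokinase that binds ATF4 and restrains it. Its level was 6.43, 6.51 and 6.45 in the mESCWM lines, 6.69, 6.45 and 6.10 in the mESCKAA lines, and 6.66, 6.10 and 5.90 in the mESCFB lines. As with Atf4, the mESCWM lines lay close together inside a wide range of the others, and KAA1 and FB1 were the highest lines. The difference was 0.05 ± 0.20 (SE) for mESCWM minus mESCKAA, 0.19 ± 0.20 for mESCKAA minus mESCFB and 0.24 ± 0.20 for mESCWM minus mESCFB.

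Ddit3 encodes CHOP, a C/EBP family factor of the later stress response. Its level was 6.24, 6.14 and 6.22 in the mESCWM lines, 6.22, 6.85 and 6.22 in the mESCKAA lines, and 6.15, 6.22 and 5.97 in the mESCFB lines. The line KAA2 alone stood apart, and the other 8 lines lay between 5.97 and 6.24. With KAA2 the difference was -0.23 ± 0.16 (SE) for mESCWM minus mESCKAA and 0.31 ± 0.16 for mESCKAA minus mESCFB, and it was 0.08 ± 0.16 for mESCWM minus mESCFB. WM3, KAA1, KAA3 and FB2 held exactly the same Ddit3 value, as did KAA1, FB1 and FB2 for Shmt2, and KAA1 and KAA3 for Chac1. Such shared values occur in 62.3% of all tested clusters, and where they fall within a group its SD is smaller for it.

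Sesn2 encodes a stress-induced sensor of leucine that restrains the growth kinase complex mTORC1. Its level was 7.35, 7.30 and 7.54 in the mESCWM lines, 7.05, 7.37 and 7.04 in the mESCKAA lines, and 7.39, 7.03 and 7.29 in the mESCFB lines. The groups overlapped, although the lowest lines were KAA1, KAA3 and FB2 and none of them was a mESCWM line. The difference was 0.24 ± 0.13 (SE) for mESCWM minus mESCKAA, -0.08 ± 0.13 for mESCKAA minus mESCFB and 0.16 ± 0.13 for mESCWM minus mESCFB.

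The serine pathway begins with Phgdh, which oxidises 3-phosphoglycerate, and goes on with Psat1, the aminotransferase of the next step. Psat1 had a level of 9.71, 9.74 and 9.48 in the mESCWM lines, 9.13, 9.36 and 9.37 in the mESCKAA lines, and 9.43, 9.34 and 9.34 in the mESCFB lines. All 3 mESCWM lines lay above all others, with WM3 just above FB1. The difference was 0.35 ± 0.10 (SE) for mESCWM minus mESCKAA, a ratio of 1.28 with a 95% interval of 1.09 to 1.49 (limma, adjusted p = 0.765). It was 0.27 ± 0.10 for mESCWM minus mESCFB, a ratio of 1.21 with an interval of 1.03 to 1.41 (limma, adjusted p = 0.819), and -0.08 ± 0.10 for mESCKAA minus mESCFB, where the lines overlapped. Of the 10 members, Psat1 had the largest share of its variance between groups, 71.1%, followed by Chac1 with 61.2%, beside a median of 24.5% over all tested clusters.

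Phgdh showed another order. Its level was 7.56, 7.18 and 7.16 in the mESCWM lines, 7.31, 7.49 and 7.36 in the mESCKAA lines, and 7.19, 6.88 and 7.13 in the mESCFB lines. Every mESCKAA line lay above every mESCFB line, with a difference of 0.32 ± 0.13 (SE), a ratio of 1.25 with a 95% interval of 1.02 to 1.53 (limma, adjusted p = 0.918). The mESCWM lines overlapped both, with differences of -0.09 ± 0.13 for mESCWM minus mESCKAA and 0.23 ± 0.13 for mESCWM minus mESCFB. A further cluster that the annotation gives to Phgdh and Gm6756 together is no member. It read 7.72 to 8.10 in the mESCWM lines, 7.77 to 7.97 in the mESCKAA lines and 7.77 to 8.06 in the mESCFB lines, so that all 3 groups overlapped in it, mESCKAA and mESCFB included.

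Asns makes asparagine from aspartate and glutamine. Its level was 11.13, 11.07 and 10.51 in the mESCWM lines, 10.66, 10.83 and 10.67 in the mESCKAA lines, and 10.75, 10.38 and 10.48 in the mESCFB lines. WM1 and WM2 were the highest of all lines, while WM3 lay among the mESCFB lines. The difference was 0.19 ± 0.17 (SE) for mESCWM minus mESCKAA, 0.19 ± 0.17 for mESCKAA minus mESCFB and 0.37 ± 0.17 for mESCWM minus mESCFB, the last with a 95% interval of -0.02 to 0.76.

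The mitochondrial one-carbon enzymes take up the serine made by this pathway. Shmt2 splits serine into glycine and a one-carbon unit, and Mthfd2 carries that unit to the next oxidation states. Shmt2 had a level of 9.20, 9.29 and 8.95 in the mESCWM lines, 9.03, 8.95 and 8.97 in the mESCKAA lines, and 9.03, 9.03 and 8.98 in the mESCFB lines. As with Asns, WM1 and WM2 were the highest lines and WM3 was not, here the lowest of all 9. The difference was 0.16 ± 0.09 (SE) for mESCWM minus mESCKAA, -0.03 ± 0.09 for mESCKAA minus mESCFB and 0.13 ± 0.09 for mESCWM minus mESCFB.

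Mthfd2 had a level of 7.62, 7.96 and 7.82 in the mESCWM lines, 8.04, 7.36 and 7.40 in the mESCKAA lines, and 8.26, 7.16 and 7.51 in the mESCFB lines. The highest lines were FB1 and KAA1, and the rest of their groups held the lowest, so that the spread within mESCFB (SD 0.57) was larger than any difference between groups. The difference was 0.20 ± 0.28 (SE) for mESCWM minus mESCKAA, -0.04 ± 0.28 for mESCKAA minus mESCFB and 0.16 ± 0.28 for mESCWM minus mESCFB.

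**Figure D2:**
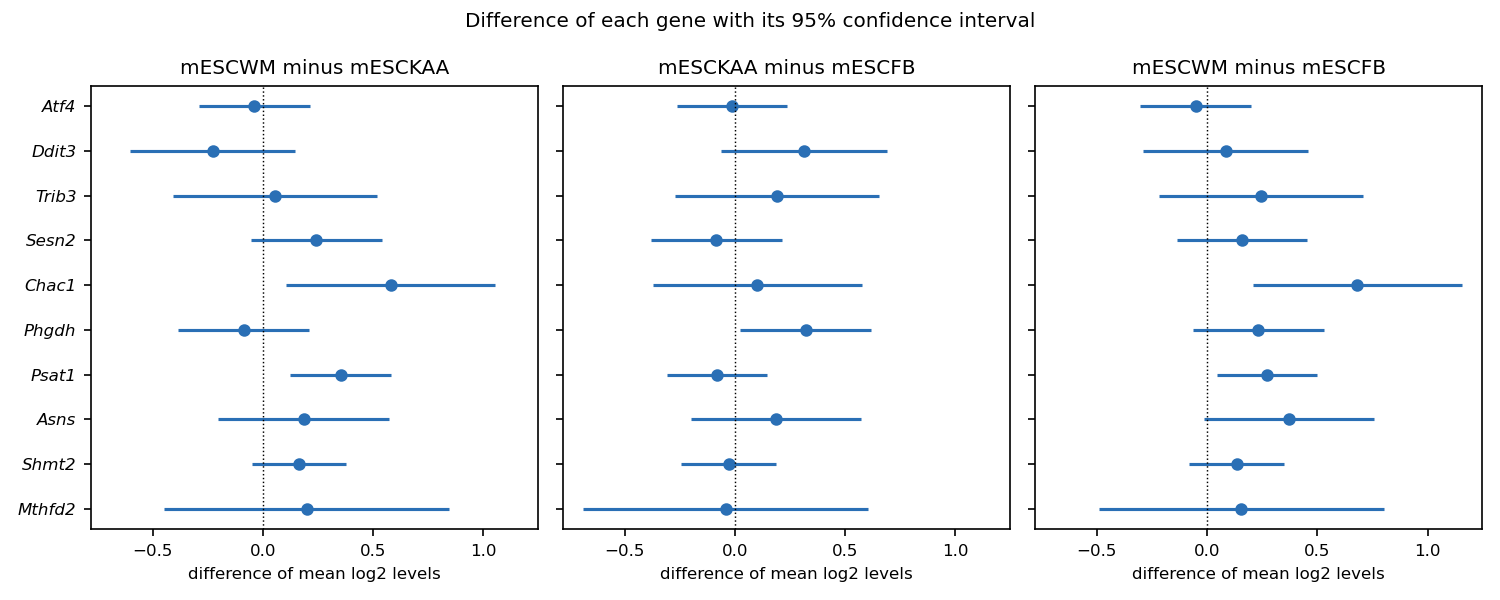
Difference of mean log2 levels of each gene (x axis, points) with its 95% confidence interval from limma (lines), for the 3 comparisons. The interval leaves out 0 for Chac1 and Psat1 where mESCWM lines are compared with mESCKAA or mESCFB lines, and for Phgdh where mESCKAA lines are compared with mESCFB lines, all before adjustment.

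Counted together, 7 of the 10 members averaged higher and 3 lower in mESCWM than in mESCKAA lines, with a median difference of 0.17 beside -0.01 over all tested clusters and 0.02 over the more highly expressed of them (mean level at least the median cluster's). That median was 0.10 without WM1, 0.0957 without WM2 and 0.11 without KAA2. Chac1 and Psat1 were the 2 whose groups did not overlap, both higher, against 4.03% of all clusters that lay higher without overlap and 4.63% that lay lower, where no member did. For mESCKAA against mESCFB lines 5 averaged higher and 5 lower, with a median of 0.04 beside 0.01 (-0.00872 to 0.25 with single lines left out, the highest without FB1). Phgdh was the 1 member whose groups did not overlap, against 4.38% of all clusters higher and 3.70% lower. For mESCWM against mESCFB lines 9 averaged higher and 1, Atf4, lower, with a median of 0.20 beside 0.00455 (0.30 without FB1). Again 2 members, Chac1 and Psat1, lay higher without overlap, against 3.58% of all clusters higher and 4.55% lower. Of the more highly expressed clusters, 6.16%, 2.57% and 4.05% lay higher without overlap in the 3 comparisons, in that order. The comparisons share lines, so that the mESCWM values of Chac1 and Psat1 enter the first and the last alike.

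Leaving out a line cannot make separate groups overlap. By this rule the count of members higher without overlap could only stay or rise. Chac1 and Psat1 (in both comparisons with mESCWM) and Phgdh (mESCKAA against mESCFB) therefore had to remain among them, which says nothing of their stability. Without FB1 the count was 7 for mESCWM against mESCFB lines (Trib3, Sesn2, Chac1, Phgdh, Psat1, Asns and Mthfd2, all higher in mESCWM). The share was 9.97% of all clusters and 13% of the more highly expressed ones, to which all 10 members belong. Without WM3 the count was 4 in that comparison, against 9.02% and 10.9%, in the same order. It was also 4 for mESCWM against mESCKAA lines, against 9.50% and 14.1%, with Asns and Shmt2 added both times. Without KAA1 it was 4 for mESCWM against mESCKAA lines, with Atf4 and Mthfd2 added, against 8.48% and 12.8%. When WM3, KAA2 and FB1, the lines with the highest Eif2s3y of their groups, were left out together, the counts were 5, 3 and 8. In these 3 comparisons the shares were 14.5%, 16.3% and 16.6% of all clusters, and 19.9%, 17.6% and 21.6% of the more highly expressed. Leaving out lines raises these shares for all clusters, since fewer lines have to stand apart. In none of these settings did a member pass limma's threshold.

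**Figure D3:**
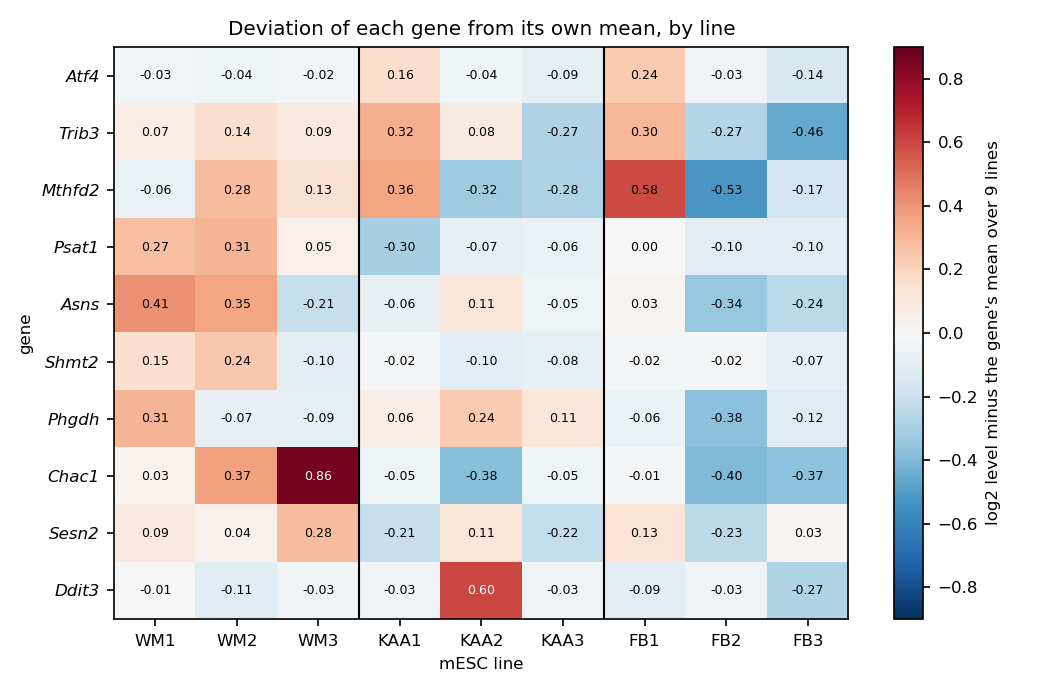
Log2 level of each gene in each line minus that gene's mean over the 9 lines (colour and printed value), with lines in columns and vertical rules between the groups. Atf4, Trib3 and Mthfd2 are highest in KAA1 and FB1, Psat1, Asns and Shmt2 in WM1 and WM2, Chac1 and Sesn2 in WM3, and Ddit3 in KAA2.

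Lines of the same group also differed. Averaged over the 10 members, the deviation from each gene's mean was 0.12 in WM1, 0.15 in WM2 and 0.10 in WM3. It was 0.02 in KAA1, 0.02 in KAA2 and -0.10 in KAA3, and in the mESCFB lines it was 0.11 in FB1, -0.23 in FB2 and -0.19 in FB3. The mESCWM lines lay above the mESCKAA lines in this average, while FB1 stood with the mESCWM lines and apart from FB2 and FB3. FB2 lay below the mean for all 10 members and was the lowest line for 5 of them (Sesn2, Chac1, Phgdh, Asns and Mthfd2). FB3 was the lowest for another 3 (Atf4, Ddit3 and Trib3). The members varied somewhat more over the lines than most clusters, with a median SD of 0.22 beside 0.16 over all tested clusters, and Chac1 (0.41) and Mthfd2 (0.36) varied most.

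The members did not vary as 1 block. Over the 9 lines, Atf4 correlated with Trib3 (Pearson's r = 0.79) and Mthfd2 (0.75), and Trib3 with Mthfd2 (0.77). With the group means removed, r was 0.96, 0.84 and 0.81 for these pairs, so that the relation was also seen within groups. Without FB1 and KAA1, r was 0.80 for Atf4 with Trib3 and 0.59 for Trib3 with Mthfd2, but 0.18 for Atf4 with Mthfd2, which thus rested on those lines. Psat1, Asns and Shmt2 formed the other set, with r of 0.72 for Psat1 with Asns, 0.76 for Asns with Shmt2 and 0.75 for Psat1 with Shmt2. Without WM1 and WM2 these were -0.03, -0.15 and -0.47, so that the set rested on those lines. Of the 45 pairs of members, 6 (13.3%) had an r of 0.7 or more, beside 3.14% of all pairs among the more highly expressed clusters, and the median r was 0.22 beside 0.02. The lines of a pair come from the same arrays, and these correlations are descriptions over 9 lines.

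**Figure D4:**
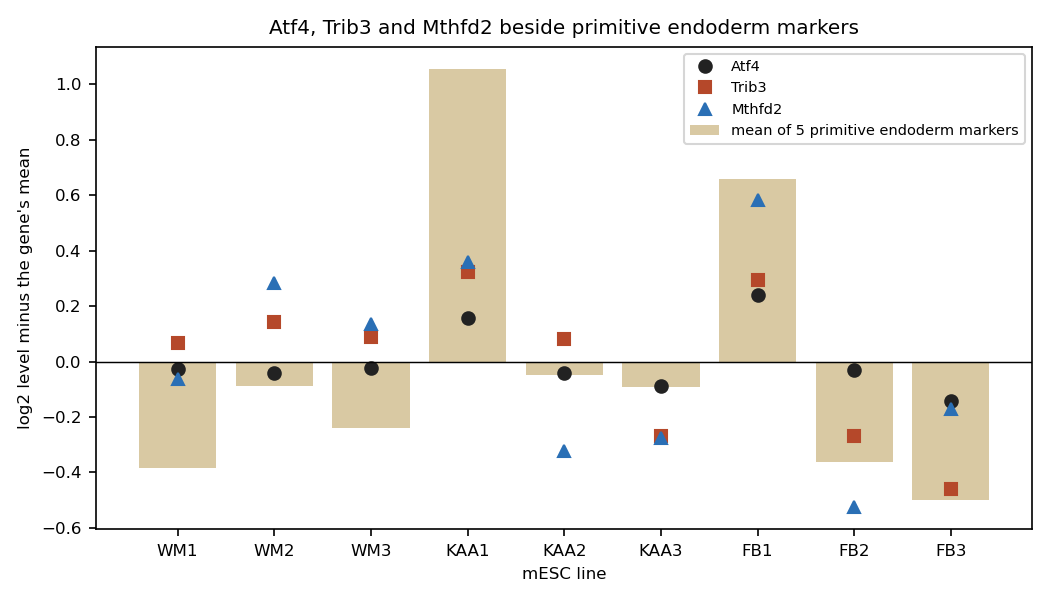
Deviation of Atf4, Trib3 and Mthfd2 from their means over the 9 lines (points, log2) beside the mean deviation of 5 primitive endoderm markers (bars, from 0), by line. KAA1 and FB1 are the only lines in which the bar is above 0, and all 3 genes are highest in them.

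KAA1 and FB1, the lines with the most Atf4, Trib3 and Mthfd2, also held the most primitive endoderm marker RNA. The mean deviation of the 5 markers (Gata6, Gata4, Sox17, Dab2 and Pdgfra) was 1.05 in KAA1 and 0.66 in FB1, with 5 of 5 above their means in each, and between -0.50 and -0.05 in the other 7 lines. Their summed level, as log2, was 7.57 to 7.78 in the mESCWM lines, 7.71 to 9.20 in the mESCKAA lines and 7.23 to 8.73 in the mESCFB lines. In RNA from whole cultures, more cells of a type and more RNA per cell cannot be told apart, and the part of these cells in the levels of the 3 genes was not tested. Without KAA1 and FB1, the difference of mESCWM minus mESCKAA lines was 0.04 for Atf4, 0.19 for Trib3 and 0.42 for Mthfd2, and that of mESCWM minus mESCFB lines was 0.06, 0.46 and 0.47.

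The summed level of the feeder fibroblast markers in the mESCWM lines, where Chac1 and Psat1 were highest, overlapped neither other group. This sum adds unlogged levels, so that the markers of highest level weigh most in it. By the mean deviation of the 11 markers, mESCWM lines lay between 0.06 and 0.25, and mESCKAA lines between -0.09 and 0.05. The mESCFB lines lay between -0.22 and -0.10, and WM1 (0.06) was only just above KAA2 (0.05). Of the 11 markers, 7 averaged higher in mESCWM than in mESCKAA lines, 1 of them without overlap (beside 4.03% of all clusters). The 4 that averaged lower were Col1a2 (-0.13), Dcn (-0.09), Col3a1 (-0.04) and Lum (-0.02). In mESCWM against mESCFB lines 9 averaged higher, 2 of them without overlap (beside 3.58%). Between mESCKAA and mESCFB lines, where Chac1 and Psat1 overlapped, 8 averaged higher in mESCKAA. There 3 lay higher and 1 lower without overlap, beside 4.38% and 3.70% of all clusters. Vim read 9.28 to 9.82 in mESCWM lines, 8.81 to 9.11 in mESCKAA lines and 8.69 to 9.02 in mESCFB lines, and it is also made by many other cells. Of these 11 markers, the contractile actin gene Acta2 had the largest difference between mESCWM and mESCFB lines, at 8.87 to 9.82 in mESCWM lines, 8.56 to 8.88 in mESCKAA lines and 7.87 to 8.56 in mESCFB lines, that is 1.10 ± 0.25 (SE) for mESCWM minus mESCFB (limma, adjusted p = 0.685). The fibronectin gene Fn1 read 8.10 to 8.65 in mESCWM lines, 7.80 to 8.52 in mESCKAA lines and 7.42 to 8.16 in mESCFB lines. The fibroblast matrix genes Postn (2.27 to 2.43 in mESCWM, 2.27 to 2.32 in mESCKAA and 2.21 to 2.27 in mESCFB lines) and Lum (1.69 to 1.83, 1.68 to 1.89 and 1.82 to 1.95 in the same order) overlapped between all groups. Of the stem cell markers named above, Tdgf1 and Pou5f1 had their lowest mean in the mESCWM lines and Nanog its highest. Of all 9 stem cell markers, 5 averaged higher and 4 lower in mESCWM than in mESCKAA lines, with a median difference of 0.000733. Against mESCFB lines 2 averaged higher and 7 lower in mESCWM lines, with a median of -0.14. WM2 had the highest mean deviation of all lines both for the stem cell markers (0.27) and for the feeder markers (0.25). The part of feeder cells, or of fewer stem cells, in the levels of Chac1 and Psat1 was not tested.

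The rest of the pathway was read from 7 lists with 66 genes, of which 60 had a cluster with a single symbol. None of the 60 passed limma's threshold or that of the rank product in any comparison. Without adjustment, limma's p was under 0.05 for 8 genes higher and 1 lower in mESCWM against mESCKAA lines, for 0 and 1 in mESCKAA against mESCFB lines, and for 9 and 1 in mESCWM against mESCFB lines. Of all clusters 3.00%, 2.73% and 2.73% were higher at this p, and 6.29%, 4.81% and 5.89% in either direction. In mESCWM against mESCKAA lines 40 averaged higher and 20 lower, with a median difference of 0.07, and 14 lay higher without overlap (23.3%, beside 4.03% of all clusters) and 1 lower. In mESCKAA against mESCFB lines 35 averaged higher and 25 lower, with a median of 0.01. Without overlap 2 lay higher (3.33%, beside 4.38% of all clusters) and 1 lower. In mESCWM against mESCFB lines 44 averaged higher and 16 lower, with a median of 0.10, and 11 lay higher (18.3%, beside 3.58% of all clusters) and 1 lower. Among the more highly expressed clusters, 6.16%, 2.57% and 4.05% lay higher without overlap in these comparisons, in that order.

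**Figure D5:**
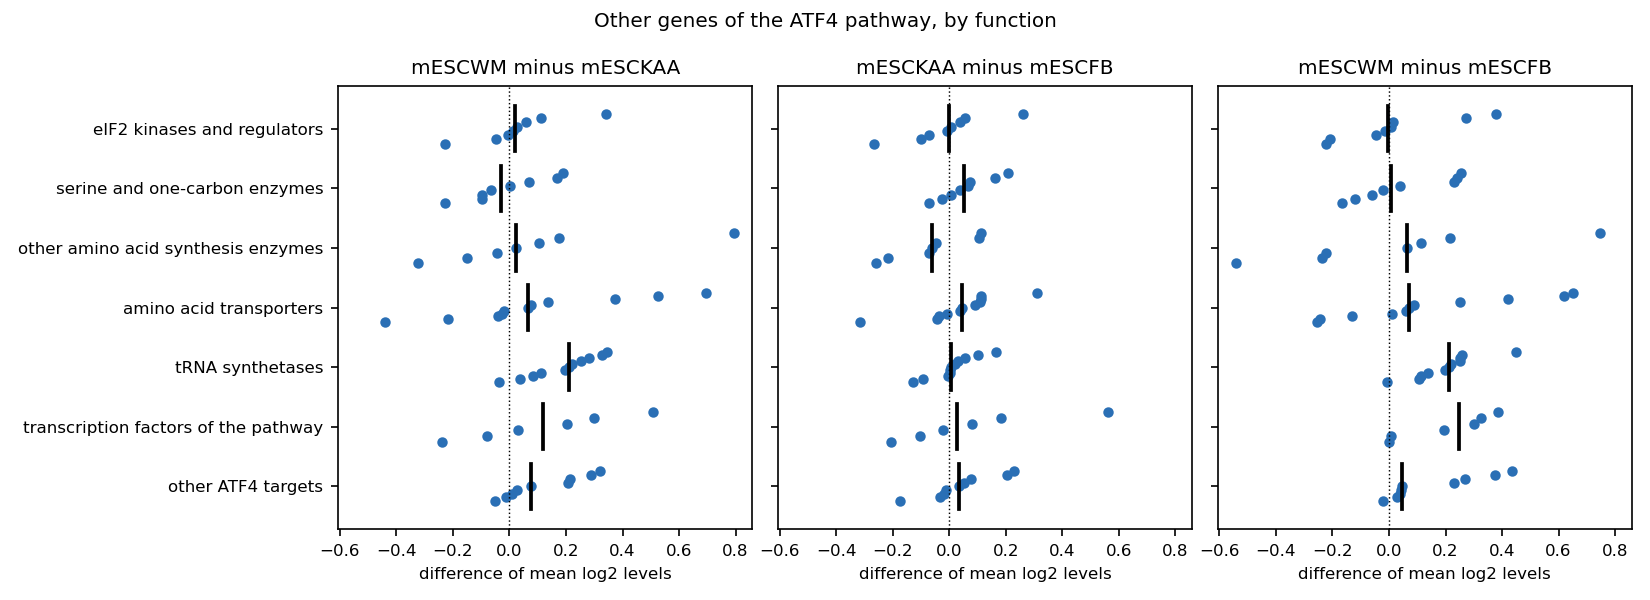
Difference of mean log2 levels (x axis) of the 60 other genes of the pathway in 7 functional lists, for the 3 comparisons. Points are genes and black bars the median of a list. The transfer RNA synthetases lie mostly above 0 in both comparisons with mESCWM lines (10 of 11 genes each) and around 0 in mESCKAA minus mESCFB lines.

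The transfer RNA synthetases, which charge transfer RNA with amino acids, held the largest number of such genes. In mESCWM against mESCKAA lines 10 of the 11 measured averaged higher, with a median of 0.21. Of these 6 did not overlap (54.5% of the list, beside 4.03% of all clusters). The threonyl enzyme Tars1 read 8.32, 8.54 and 8.33 in the mESCWM lines, 8.09, 7.94 and 8.17 in the mESCKAA lines, and 8.22, 8.15 and 8.22 in the mESCFB lines. All its mESCWM lines lay above the others, with a difference of 0.33 ± 0.09 (SE) for mESCWM minus mESCKAA (limma, adjusted p = 0.765). In mESCWM against mESCFB lines again 10 of 11 averaged higher, with a median of 0.21, and 4 did not overlap (36.4%, beside 3.58% of all clusters). The cysteinyl enzyme Cars1 read 7.84, 8.16 and 7.85 in the mESCWM lines, 7.56, 7.72 and 7.71 in the mESCKAA lines, and 7.72, 7.50 and 7.27 in the mESCFB lines, with a difference of 0.45 ± 0.13 (SE) for mESCWM minus mESCFB (limma, adjusted p = 0.819). Between mESCKAA and mESCFB lines the median of the synthetases was 0.01 and 0 of 11 lay without overlap, beside 4.38% of all clusters higher and 3.70% lower.

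Of the 11 amino acid transporters, Slc6a9, Slc1a4 and Slc1a5 lay higher without overlap in mESCWM lines against each other group, the last 2 named after their values were seen. These are 27.3% of the list, beside 4.03% of all clusters against mESCKAA and 3.58% against mESCFB lines. Slc6a9, the glycine transporter GLYT1, read 5.45, 5.50 and 5.69 in the mESCWM lines, 5.10, 4.85 and 5.10 in the mESCKAA lines, and 5.04, 4.66 and 5.08 in the mESCFB lines. Its difference was 0.53 ± 0.13 (SE) for mESCWM minus mESCKAA (limma, adjusted p = 0.752) and 0.62 ± 0.13 for mESCWM minus mESCFB (limma, adjusted p = 0.669), the smallest p of the pathway lists in both. Slc7a11, the exchanger that brings in cystine, had its lowest mean in the mESCWM lines, with 3.43, 3.09 and 3.47 in the mESCWM lines, 3.81, 4.00 and 3.50 in the mESCKAA lines, and 3.47, 3.44 and 3.47 in the mESCFB lines. Its difference was -0.44 ± 0.14 (SE) for mESCWM minus mESCKAA (limma, adjusted p = 0.771), and 0.31 ± 0.14 for mESCKAA minus mESCFB (limma, adjusted p = 0.918). All its levels were low, below the medians of the arrays (4.64 to 4.70). Slc7a3, a transporter of basic amino acids, averaged lower in mESCKAA than in mESCFB lines by -0.32 ± 0.18 with overlap.

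Among the other enzymes, Gpt2, the mitochondrial alanine aminotransferase, read 6.37, 6.97 and 6.09 in the mESCWM lines, 5.78, 5.68 and 5.59 in the mESCKAA lines, and 5.97, 5.65 and 5.58 in the mESCFB lines. It had the largest difference of the lists, 0.79 ± 0.21 (SE) for mESCWM minus mESCKAA (limma, adjusted p = 0.752) and 0.75 ± 0.21 for mESCWM minus mESCFB (limma, adjusted p = 0.808). Glul, which makes glutamine, read 9.11, 8.94 and 9.58 in the mESCWM lines, 9.82, 9.26 and 9.52 in the mESCKAA lines, and 9.88, 9.83 and 9.55 in the mESCFB lines. Its mean was the lowest in the mESCWM lines, but WM3 overlapped both other groups, with differences of -0.32 ± 0.20 for mESCWM minus mESCKAA and -0.54 ± 0.20 for mESCWM minus mESCFB. Got1, the cytosolic aspartate aminotransferase, averaged lower than in mESCFB lines by -0.26 ± 0.10 in mESCKAA lines, with overlap, and by -0.24 ± 0.10 in mESCWM lines, without it. Mthfd1, the cytosolic one-carbon enzyme, had a difference of -0.23 ± 0.16 for mESCWM minus mESCKAA, and its mitochondrial relative Mthfd1l one of -0.17 ± 0.08 for mESCWM minus mESCFB, both with overlap.

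Atf3 and Fgf21 were named by their rank between mESCKAA and mESCFB lines. The stress-induced factor Atf3 read 7.72, 8.40 and 7.17 in the mESCKAA lines against 7.77, 6.76 and 7.06 in the mESCFB lines, an overlap with a difference of 0.56 ± 0.33 (SE). KAA2, the line with the most Ddit3, held the most Atf3 as well. The hormone gene Fgf21 read 3.71, 3.75 and 3.64 in the mESCKAA lines against 3.63, 3.44 and 3.42 in the mESCFB lines, with a difference of 0.20 ± 0.10 and no overlap. These are low levels, below the medians of the arrays (4.64 to 4.70).

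Eif2ak4, which encodes the amino acid sensing kinase GCN2, was named after its values were seen. It read 5.19, 5.01 and 5.30 in the mESCWM lines, 4.93, 4.63 and 4.93 in the mESCKAA lines, and 5.02, 4.62 and 4.73 in the mESCFB lines. Its mESCWM lines lay above all mESCKAA lines, with a difference of 0.34 ± 0.13 (SE, limma, adjusted p = 0.771), while FB1 lay just above WM2 and the difference of mESCWM minus mESCFB was 0.38 ± 0.13 (limma, adjusted p = 0.819). As a list, the eIF2 kinases and their regulators had medians of 0.02, -0.00204 and -0.00247 in the 3 comparisons, in the order given above, and the other serine and one-carbon enzymes medians of -0.03, 0.05 and 0.01.

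Over the 9 lines, the clusters most like the mean of the members were those of Zfp341 (Pearson's r = 0.98), Nt5dc2 (0.96), Mfsd13a (0.95), Acvr2b (0.95), Nr1d1 (0.93) and Lrp5 (0.93), taken as the 6 highest among the more highly expressed clusters with a single symbol. Zfp341 read 6.09, 6.08 and 6.09 in the mESCWM lines, 5.97, 6.00 and 5.80 in the mESCKAA lines, and 6.08, 5.63 and 5.60 in the mESCFB lines, which repeats the low FB2 and FB3 and the high FB1 of the members. The 6 were picked from many clusters over 9 points, and the ranking is a description of these lines.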

How the data were processed

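The authors scanned 1 Affymetrix Mouse Gene ST array per line. Per the labels the tools were R 3.1.0 and Affymetrix Expression Console, and the methods name RMA in affylmGUI, so that the deposited values are background-corrected log2 levels on a scale shared by the arrays. They lie between 0.56 and 13.3, with medians of 4.64 to 4.70 per array over the tested clusters. Of 35556 transcript clusters, 23410 with an assigned gene were tested. Groups and line numbers came from the sample titles. No scan date or batch is given in the sources used here.

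For each cluster, limma 3.58.1 under R 4.3.3 fitted a mean per group over all 9 lines (lmFit, then eBayes), and two-sided p-values were adjusted by Benjamini-Hochberg over the tested clusters. For the rank product, every line of one group was set against every line of the other (9 differences), and values were permuted 100 times inside each array. Clusters whose estimated proportion of false positives stayed below 0.05 were called, separately up and down, in numpy 2.4.6 with Python 3.11.15. Both were tested on simulated data with added differences larger than any seen for the members, so that smaller ones were not covered. Tables were handled with pandas 2.3.3 and figures drawn with matplotlib 3.10.9. A difference is the first group minus the second.

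The members, the pathway lists and the marker lists were chosen with earlier results of these data known. Genes named are the 10 members, per comparison the up to 3 pathway genes with the smallest p in each direction, the 6 clusters most like the members, Eif2s3y and the markers. The choice of Slc1a4, Slc1a5 and Eif2ak4 as further names followed a look at their values. Where a gene has several clusters, the one with the highest mean was taken, and 10 pathway genes were found through their Entrez ID. Of the 66 listed pathway genes 6 were not analysed here, nor was 1 listed fibroblast marker, for want of a cluster with a single symbol. Promoters were matched by Entrez ID, for 10 of 10 members and 48 pathway genes.

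The alternatives tried were quantile normalization, centring each array on its median, testing every cluster or only the more highly expressed ones (mean level at least that of the median cluster), keeping 1 cluster per symbol, the replicate number as a block, eBayes with a trend or robust (statmod 1.5.0), only the lines compared, a rank product threshold of 0.1, leaving out each line in turn, leaving out the line of each group with the highest Eif2s3y, and leaving out KAA1 and FB1, the last chosen after seeing the data.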

Additional observations from a re-analysis of the deposited data

How the results depend on the processing

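Over the alternatives, 0 of 510 differences of members passed limma's threshold (smallest adjusted p 0.290), and 23 had the other sign, in 10 of 30 results. By quantile normalization Atf4 was 0.0275 and Shmt2 0.00908 for mESCKAA minus mESCFB, and Atf4 0.00278 for mESCWM minus mESCFB. Without the lines of highest Eif2s3y, Phgdh was 0.0321 for mESCWM minus mESCKAA, Atf4 0.12 and Mthfd2 0.39 for mESCKAA minus mESCFB, and Atf4 0.0525 for mESCWM minus mESCFB. Without KAA1 and FB1, Atf4 was 0.0352 for mESCWM minus mESCKAA and 0.0564 for mESCWM minus mESCFB, and for mESCKAA minus mESCFB Atf4 was 0.0212, Sesn2 0.0444, Psat1 0.0301 and Mthfd2 0.0498.

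Leaving out 1 line at a time, Atf4 ranged from -0.0876 to 0.0352 and Trib3 from -0.10 to 0.19 for mESCWM minus mESCKAA, Atf4 from -0.0949 to 0.0950 and Mthfd2 from -0.29 to 0.27 for mESCKAA minus mESCFB, and Atf4 from -0.133 to 0.0564 and Mthfd2 from -0.0878 to 0.467 for mESCWM minus mESCFB. The median of the members for mESCKAA minus mESCFB ranged from -0.00872 to 0.247 (without FB1), and members higher without overlap from 2 to 4, 1 to 2 and 2 to 7 in the 3 comparisons. Of all clusters, 7.24% to 9.50%, 7.57% to 11.4% and 7.61% to 9.97% lay higher without overlap, in that order. Clusters past limma's threshold ranged from 0 to 1 (without WM3) in both comparisons with mESCWM and were 0 otherwise, and those past the rank product from 31 to 70, 4 to 69 and 10 to 49, beside 81, 25 and 28 with all lines.

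Without the lines of highest Eif2s3y the median of the members was 0.18 for mESCKAA minus mESCFB and 0.37 for mESCWM minus mESCFB. In the 3 comparisons 5, 3 and 8 members lay higher without overlap, beside 14.5%, 16.3% and 16.6% of all clusters. Without KAA1 and FB1, 9 members averaged above 0 for mESCKAA minus mESCFB, and 4, 3 and 7 lay higher without overlap. The shares were 8.48%, 17.4% and 9.97% of all clusters, and 12.8%, 14.7% and 13% of the more highly expressed. With median centring 2 members lay higher without overlap for mESCKAA against mESCFB, where 4.38% of all clusters did before centring. A rank product threshold of 0.1 called 60 clusters for mESCKAA against mESCFB and 56 for mESCWM against mESCFB. The cause of these shifts was not tested.

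With the replicate number as a block, the number of clusters past the threshold was 0 in each comparison and no member's call changed (for Chac1 in mESCWM against mESCKAA the adjusted p was 0.594). Lines of the same number deviated from their group means with r between -0.01 and 0.33, so that the numbers were not taken to pair the lines.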
